A study of Saccharomyces cerevisiae with 2 samples.

Results

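The genes described here encode proteins of the mitochondrial ribosome of Saccharomyces cerevisiae. They were chosen by name, with earlier results of these data known. The rule took the ORF rows whose standard symbol in the R64 annotation is MRP, MRPL, MRPS or RSM followed by a number. The annotation lists 67 such genes. The arrays held a row for 65 of them, among 6207 ORF rows in all. MRP10 and MRPL15 had no row under their R64 ORF names, and MRPL33 had a row with no value on either array. The other 64 had a value on both arrays, as did 5311 ORFs in all. Their R64 synonyms carry the unified names of ribosomal proteins, which place 36 of the 64 in the large subunit and 26 in the small. RSM22, which has no such name, was counted with the small subunit by its symbol, which made 27. MRP8 also has none and was put in neither subunit. It was first taken for a mitochondrial ribosomal protein by its sequence and is not known as part of the ribosome.

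Cells of a sho1 mutant in the BY4741 background were compared in 2 states, treated for 3 hours with Zymolyase at 0.8 units per ml and untreated, both in the rich glucose medium YEPD at 24 °C. Sho1 is a membrane sensor of the osmotic stress pathway, and Zymolyase is a mixture of enzymes that breaks down wall glucan. All cells carried the sho1 mutation, whose allele is not described, and no wild-type cells are part of this comparison. Treated and untreated RNA were hybridised together on 2 two-colour arrays. Treated RNA was labelled with Cy3 and untreated RNA with Cy5 on array 1, and the dyes were exchanged on array 2.

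The ribosome inside mitochondria makes a handful of hydrophobic proteins, nearly all of them subunits of the respiratory chain and of ATP synthase. Its RNA and a single protein, Var1, are encoded by mitochondrial DNA. All its other proteins are encoded in the nucleus, translated in the cytosol and imported. In yeast the mRNAs of many of them are bound by the Pumilio protein Puf3, and cells without mitochondrial translation cannot grow on carbon sources that must be respired. On glucose such cells still grow by fermentation. Unified names tell where a protein is found: u stands for all domains of life, b for bacteria and their descendants, and m for mitochondria, while L and S give the subunit. No sequences of these genes were used here.

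Each value is a deposited log2 ratio. Which channel is on top is not stated. Read as deposited, a value above 0 likely means higher in treated than in untreated cells, since the labels present both arrays as that same comparison. If instead the columns hold ratios of one dye over the other, array 1 must be turned in sign (or array 2, if Cy3 is on top, which turns every sign once more). The text gives values as deposited unless it says otherwise, and adds the turned reading for the main counts and orders that depend on it. Across all 5311 ORFs the columns had a Pearson r of -0.012 and a Spearman rho of -0.26, which do not settle the choice. Column medians were -0.03 and -0.02. SHO1 had no value, and a ratio between 2 samples of sho1 cells could not check the mutation in any case. The free-text comment on the untreated RNA of array 2 names hog1 where the other labels name sho1. Nothing in the labels ties the arrays to separate cultures, so a p-value here reflects how far 2 arrays differ, and that difference may be purely technical. Spot intensities were not used here, and precision is limited by having 2 arrays. In RNA from a whole culture, fewer cells with a transcript and less of it per cell cannot be told apart.

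No mitochondrial ribosomal protein gene passed the test in either reading. As deposited, limma, with Benjamini-Hochberg adjustment over 5311 ORFs, called 0 of the 64 genes at an adjusted p of 0.05, and the lowest adjusted p among them was 1.00. Over all ORFs the share called was 0.772%, all of it higher. At an unadjusted p of 0.05 limma also picked 0 of the 64 genes, against 3.6% of all ORFs (2.49% higher and 1.11% lower). No mean of the 64 reached 1.2-fold, as 3.97% of all ORFs did, or 1.5-fold, as 0.715% did. The lowest unadjusted p, 0.136, belonged to MRPL44. The mean log2 ratios of the 64 genes ran from -0.15 to 0.21 with a median of -0.0021, while those of all ORFs ran from -0.41 to 2.06 with a median of -0.03. Their SD over genes was 0.07, against 0.15 over all ORFs. The quartile ranges of the means were closer, -0.06 to 0.04 for the 64 genes and -0.09 to 0.04 over all ORFs.

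As deposited, the intervals of the means draw most of their width from a spread shared across genes. The 95% interval of the mean held 0 for all 64 genes, and all 64 intervals lay within 1.5-fold up and down (log2 ±0.585), as did 97.1% of the intervals over all ORFs. The bounds farthest from 0 were 0.53, for RSM18, and -0.42, for MRPS9, equal to 1.45-fold higher and 1.34-fold lower. These intervals are not adjusted for their number, and they bound a gene's own 2 values poorly. The standard error was 0.130 for RSM24, whose SD between arrays was 0.0018, and 0.147 for RSM19, whose SD was 0.48. Both deposited values of RSM18, 0.64 and -0.22, lay outside its interval, as did both values of RSM19 and of MRPL40. With array 1 turned, 63 of the 64 intervals lay within 1.5-fold, against 94.1% over all ORFs, and the one outside was RSM18, from -0.76 to -0.10.

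**Figure D1:**
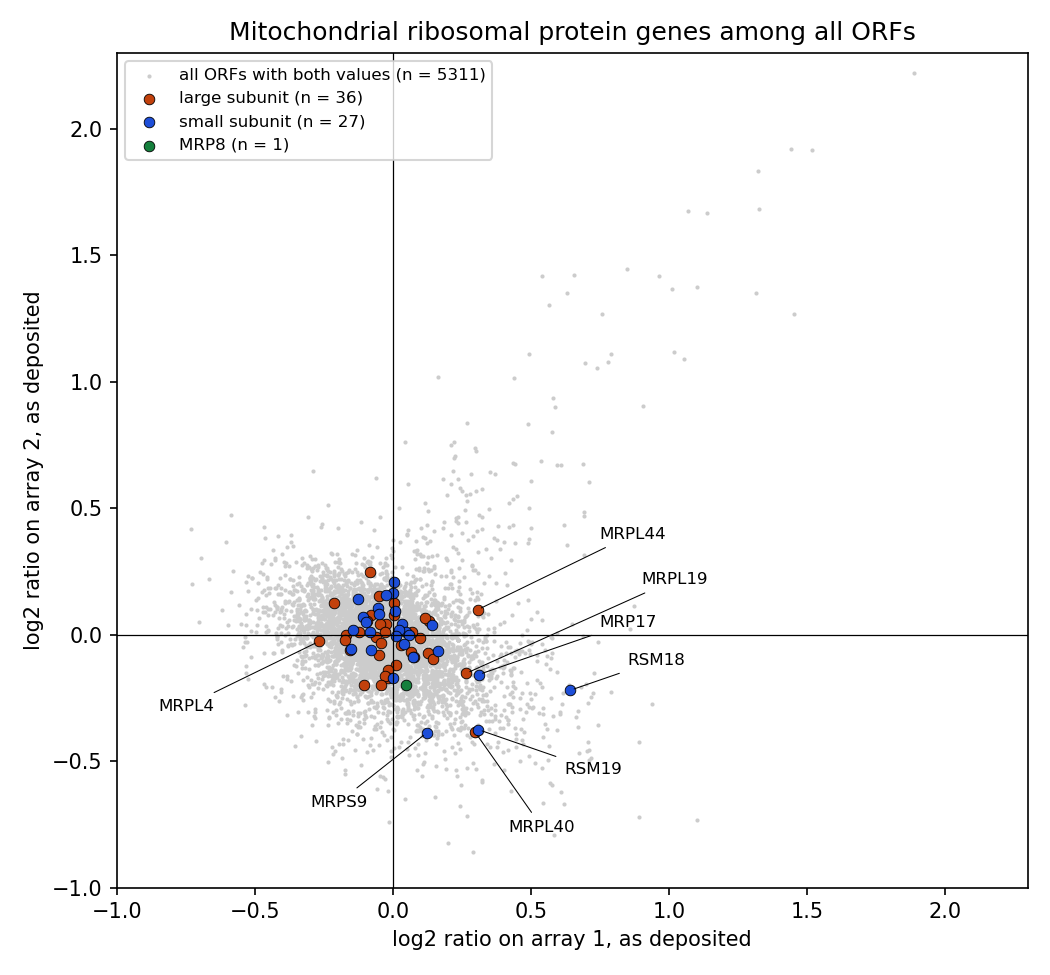
Deposited log2 ratios on array 1 (x axis) and array 2 (y axis); grey points are all 5311 ORFs with both values, and coloured points are the 36 large subunit genes, the 27 small subunit genes and MRP8. The coloured points lie around the origin, and none is among the ORFs with high values on both arrays; RSM18, RSM19, MRPL40, MRPS9, MRP17 and MRPL19 lie to the lower right.

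On single arrays most of the 64 genes were close to 0. On array 1, 40 of them (62.5%) lay within 0.1 of 0 on the log2 scale, against 41.3% of all ORFs. On array 2 the count was 41 (64.1%), against 50% of all ORFs. RSM18 on array 1 was the only value of either array past 1.5-fold, where 1.51% of all ORFs were on array 1 and 1.45% on array 2. Past 1.2-fold there were 7 genes on array 1 and 3 on array 2, with backgrounds of 16.7% and 12.3%. These shares describe the arrays and were not tested.

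The signs of the 64 genes were spread much as those of all ORFs. There were 13 genes above 0 on both arrays (14% of all ORFs) and 15 below 0 on both (26.8%). Opposite signs were found for 36 genes, 56.2% of the 64, against 59.2% of all ORFs. These were 18 genes above 0 on array 1 and below it on array 2 (29.2% of all ORFs), and 18 the other way round (30.1%). Across the 64 genes Pearson's r between arrays was -0.43 and Spearman's rho -0.33, as a description over genes that share the same arrays. Without RSM18 they were -0.40 and -0.30.

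Large subunit genes had medians of -0.03 on array 1 and -0.02 on array 2 on the log2 scale. For small subunit genes the medians were 0.0060 and 0.01. Large minus small was thus -0.03 on each array as deposited, and turning array 1 reverses its sign on that array. By symbol alone, the 32 MRPL genes had medians of -0.03 and -0.02, and the 20 MRPS and RSM genes had 0.0082 and -0.0022. Of the large subunit genes, 6 (16.7%) were above 0 on both arrays and 12 (33.3%) below 0 on both. Of the small subunit genes, 7 (25.9%) were above and 3 (11.1%) below, against 14% and 26.8% of all ORFs. The remaining 18 large and 17 small subunit genes had opposite signs. With array 1 turned, 9 large (25.0%) and 9 small subunit genes (33.3%) were above 0 on both arrays, against 30.1% of all ORFs. Below 0 on both were 9 large (25.0%) and 8 small (29.6%), against 29.2% of all ORFs. The subunits were thus closer in the share below 0, while the gap in the share above 0 stayed much the same. The difference between subunits was not tested.

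**Figure D2:**
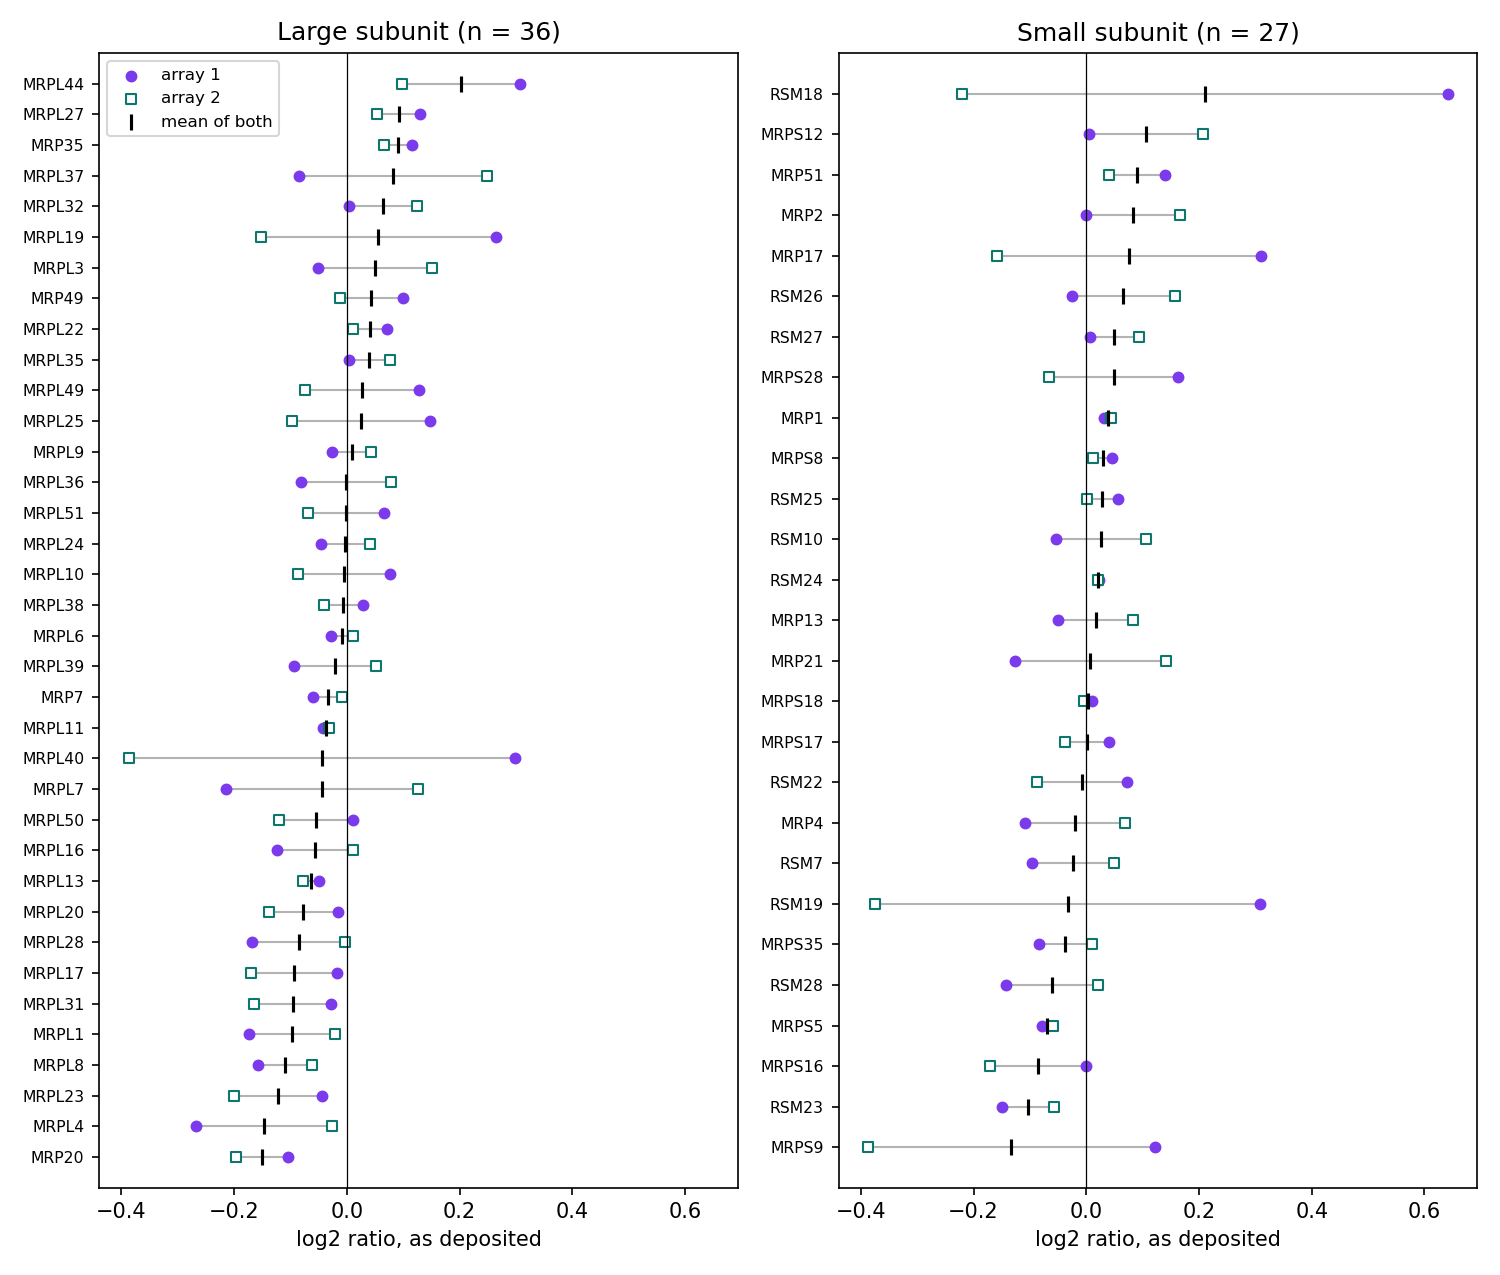
Deposited log2 ratio (x axis) of each large subunit gene (left, n = 36) and small subunit gene (right, n = 27) on array 1 (filled circles) and array 2 (open squares), with the mean of both as a bar, ordered by mean. Means run from -0.15 to 0.20 in the large subunit and from -0.13 to 0.21 in the small, and the widest gaps, in RSM18, RSM19, MRPL40, MRPS9, MRP17 and MRPL19, all have array 1 on the right.

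Among large subunit genes with the highest means as deposited, MRPL44 (mL53) stood first. It had 0.31 on array 1 and 0.10 on array 2, a mean of 0.20 ± 0.15 (SD, n = 2 arrays), or 1.15-fold (limma adjusted p = 1.00). It was the only one of the 64 genes with a mean above 0.15 and one sign on both arrays. MRPL27 (mL41) followed with 0.13 and 0.05, and MRP35 (bL35m) with 0.12 and 0.07. Both of these were above 0 on each array by small amounts. MRPL37 (mL54) had -0.08 on array 1 and 0.25 on array 2, so its place near the top rests on array 2. MRPL32 (bL32m), a protein cleaved by the mitochondrial m-AAA protease before it joins the ribosome, had 0.0037 and 0.12. MRPL19 (uL11m), part of the stalk base where translation factors bind, had 0.26 and -0.15, and MRPL3 (mL44), a relative of bacterial ribonuclease III, had -0.05 and 0.15. The last 2 took opposite signs. MRP49 (mL61) closed the highest 8 with 0.10 and -0.01. This order holds for the columns as deposited: turned, MRPL44 had a mean of -0.10, while MRPL7 and MRPL37 led the large subunit with 0.17.

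As deposited, 5 of the 8 lowest large subunit means belonged to proteins with u or b names. Of all 36 large subunit genes, 14 carry a u name and 9 a b name. MRP20 (uL23m), which lines the exit of the peptide tunnel, had -0.10 on array 1 and -0.20 on array 2, a mean of -0.15 ± 0.07 (SD, n = 2 arrays), or 1.11-fold lower (limma adjusted p = 1.00). MRPL4 (uL29m), its neighbour at the tunnel exit, had -0.27 and -0.03. Both were below 0 on each array, and MRPL4 owed most of its mean to array 1. MRPL23 (uL13m) had -0.04 and -0.20, MRPL8 (bL17m) had -0.16 and -0.06, and MRPL1 (uL1m), the protein of the L1 stalk, had -0.17 and -0.02. MRPL31 (mL60) had -0.03 and -0.16, MRPL17 (mL46) -0.02 and -0.17, and MRPL28 (mL40) -0.17 and -0.0032. All 8 of these lowest genes were below 0 on both arrays, which their place in the order partly fixes. Turned, the lowest were MRPL40 (uL24m) at -0.34, MRPL19 at -0.21, MRPL25 (mL59) at -0.12, MRPL44 at -0.10 and MRPL49 (bL21m) at -0.10.

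The remaining 20 large subunit genes had means between -0.08 and 0.04. Among them was MRP7 (bL27m), whose bacterial counterpart reaches towards the peptidyl transferase centre, with -0.06 and -0.0087. MRPL36 (bL31m) had -0.08 and 0.08, and MRPL25 (mL59), also named AFO1, had 0.15 and -0.10. The small values of these genes lay on either side of 0. MRPL11 (uL10m), which carries the stalk proteins, had -0.04 and -0.03, one of the closest pairs of values among the 64 genes. MRPL40 (uL24m) had 0.30 and -0.39, and its mean of -0.04 hides a wide gap between arrays.

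Among small subunit genes as deposited, RSM18 (bS18m) had the highest mean and the least agreement. It had 0.64 on array 1 and -0.22 on array 2, a mean of 0.21 ± 0.61 (SD, n = 2 arrays; limma adjusted p = 1.00). Its value on array 1 lay at percentile 99.0 of all ORFs, and its value on array 2 at percentile 11.6. MRPS12 (uS12m), at the decoding centre, had 0.0052 and 0.21. MRP51 (bS1m), which acts through the leaders of mitochondrial mRNAs, had 0.14 and 0.04, and MRP2 (uS14m) had -0.00043 and 0.17. Of these 3 only MRP51 was above 0.01 on both arrays. MRP17 (bS6m) had 0.31 and -0.16, RSM26 (mS42) had -0.03 and 0.16, RSM27 (mS33) had 0.0060 and 0.09, and MRPS28 (uS15m) had 0.16 and -0.07. Turned, the highest small subunit means were 0.13, in MRP21 (bS21m), and 0.10, in MRPS12.

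At the low end of the small subunit as deposited stood MRPS9 (uS9m), with 0.12 on array 1 and -0.39 on array 2, a mean of -0.13 ± 0.36 (SD, n = 2 arrays; limma adjusted p = 1.00). RSM23 (mS29), the relative of the mammalian death-associated protein 3, had -0.15 and -0.06. MRPS16 (bS16m) had -0.0013 and -0.17. Like MRPS9, MRPS16 took its low mean from array 2 alone, while RSM23 was low on both. MRPS5 (uS5m), which in bacteria helps keep decoding accurate, had -0.08 and -0.06. RSM28 (mS46), of which a dominant allele acts on mitochondrial translation initiation, had -0.14 and 0.02, and MRPS35 (mS45) had -0.08 and 0.0098. RSM19 (uS19m) had 0.31 and -0.38, and RSM7 (uS7m), a protein of the subunit's head, had -0.10 and 0.05. Turned, the lowest small subunit means were -0.43 in RSM18, -0.34 in RSM19, -0.26 in MRPS9 and -0.23 in MRP17.

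The other 11 small subunit genes had means between -0.02 and 0.04. RSM24 (mS35) had 0.02 on both arrays, and its absolute difference between them lay at percentile 0.687 of all ORFs. MRP1 (mS43), whose fold is that of a manganese superoxide dismutase, had 0.03 and 0.04. RSM22, a protein with a methyltransferase-like domain, had 0.07 and -0.09, and MRP4 (uS2m) had -0.11 and 0.07. Outside both subunits, MRP8 had 0.05 and -0.20. MRPS18, MRPL6, RSM24, MRPL38 and MRPL11 were the 5 genes whose pair of values lay nearest to the medians of all 64, at distances of 0.011 to 0.050.

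The 40 genes with a u or b name had a median of -0.00087 on array 1 and -0.02 on array 2, and the 22 with an m name had -0.02 and 0.01. Opposite signs were found in 25 of the 40 (62.5%) and in 9 of the 22 (40.9%), beside 59.2% of all ORFs. Turned, this order is reversed, with opposite signs in 15 of the 40 (37.5%) and 13 of the 22 (59.1%). The 14 u proteins of the large subunit had medians of -0.03 on each array. Their turned means had a median of -0.01, against -0.06 for the 13 m proteins of the large subunit. All 6 genes with the widest gaps between arrays carry a u or b name. None of these differences between classes was tested.

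The genes that differed most between arrays all differed in one direction. RSM18, RSM19, MRPL40, MRPS9, MRP17 and MRPL19 had array 1 above array 2 by 0.86, 0.68, 0.68, 0.51, 0.47 and 0.42 in log2. Each of the 6 was above 0 on array 1 and below it on array 2. The next widest gap, 0.34, ran the other way, in MRPL7 (uL5m), with -0.21 and 0.13. Over all ORFs, 739 (13.9%) had a gap at least as wide as that of MRPL19, and in 59.3% of these array 1 was the higher, while the share among the 64 genes was 9.38%. Without these 6 genes, a removal chosen after their values were seen, Pearson's r between arrays over the other 58 was -0.08. RSM19 and MRPS12 are neighbours in the R64 gene order, the only adjacent pair among the 67 genes, and their values were unlike on both arrays.

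With array 1 turned, these same genes had the means farthest from 0. This restates their gaps, since a turned mean is the gap between arrays divided by 2 with its sign changed. At an unadjusted p of 0.05 limma then picked 4 of the 64 genes (6.25%), all below 0. Over all ORFs it picked 9.4%, made up of 3.45% above and 5.95% below 0. They were RSM18 with a mean of -0.43, RSM19 with -0.34, MRPL40 with -0.34 and MRP17 with -0.23. MRPS9, at -0.26, was farther below 0 than MRP17 but had an unadjusted limma p of 0.055. After adjustment over all ORFs 0 genes passed, and the lowest adjusted p among the 64 was 0.487, in RSM19 and MRPL40 (limma, n = 2 arrays). The highest turned means were 0.17, in MRPL7 and MRPL37. The turned median of the 64 genes was -0.0044, beside 0.0059 over all ORFs, and the turned means of the large and small subunit had medians of -0.02 and 0.0059.

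**Figure D3:**
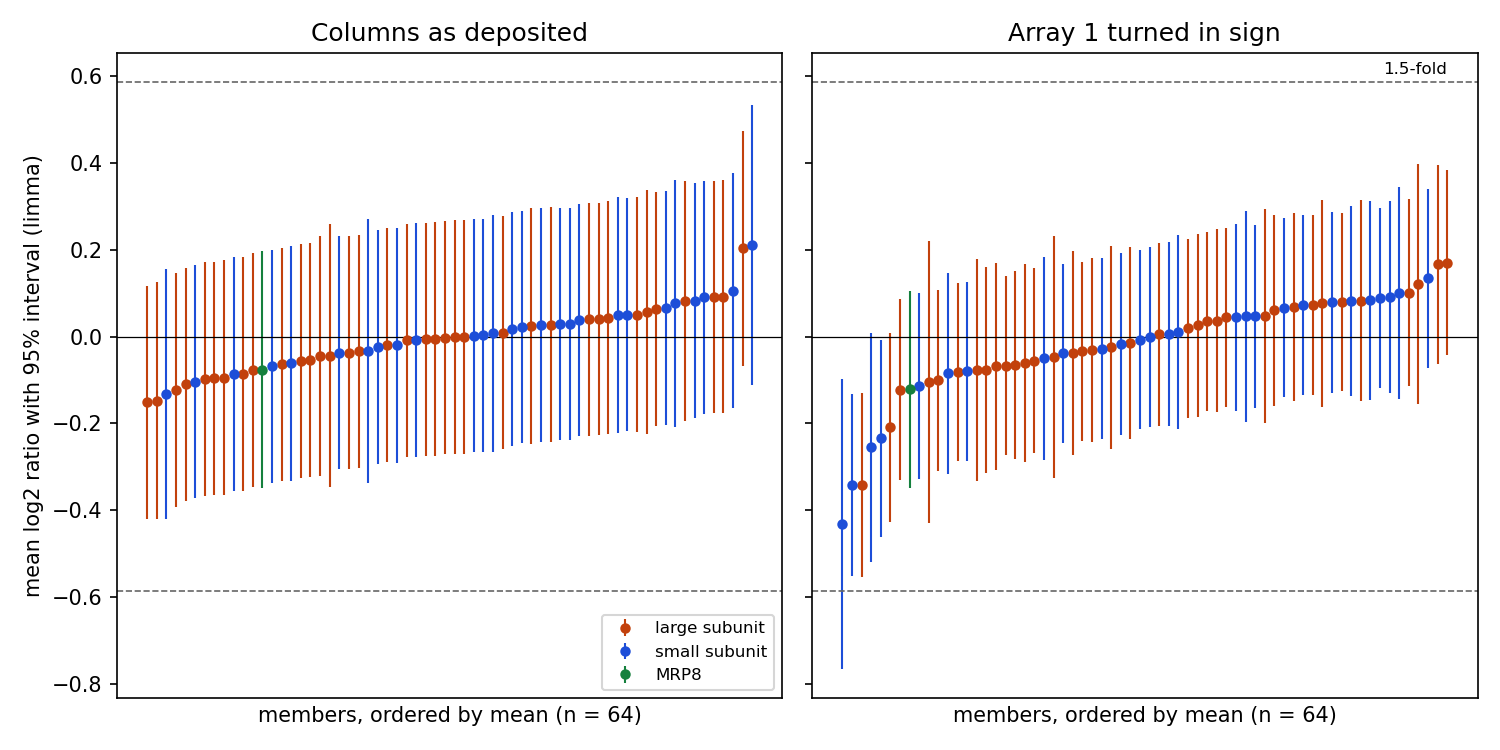
Mean log2 ratio with limma's 95% interval (y axis) for the 64 genes in order of their mean, with the columns as deposited (left) and array 1 turned in sign (right); dashed lines mark 1.5-fold. As deposited all 64 intervals cross 0 and stay inside the lines; turned, RSM18, RSM19, MRPL40 and MRP17 have intervals below 0, and that of RSM18 passes the lower line.

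The 64 genes were short in the R64 annotation, with a median gene length of 706.5 bp and a range of 213 to 1887 bp. The median was 1254 bp for the 4999 tested ORFs with a length. Across the 64 genes Spearman's rho of length with the ratios was -0.28 for array 1 and 0.05 for array 2. Over all ORFs with a length it was 0.05 and -0.04. These are descriptions over genes and carry no test.

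Mitochondrial ribosomal proteins under other symbols also had no gene past the test. Of the 14 listed, 12 had values, and RTC6 and VAR1 had no row. Their medians were -0.09 on array 1 and -0.06 on array 2. As deposited, 6 of the 12 (50%) were below 0 on both arrays, against 26.8% of all ORFs. Above 0 on both were 0, against 14% of all ORFs. With array 1 turned, 2 were below 0 on both and 4 above, against 29.2% and 30.1% of all ORFs. YML6 (uL4m) had -0.18 and -0.06, and IMG2 (mL49) had -0.13 and -0.08. PET123 (mS26) had 0.22 and -0.40, the same high and low order as the 6 genes above, and a turned mean of -0.31 (limma adjusted p = 0.493). QRI5 (mS38), which the list lacks and which was added after its value was seen, had -0.06 and -0.09. With these 13 genes the set grew to 77, with a median mean of -0.0080 and 0 genes past limma's test.

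Genes for the rest of mitochondrial gene expression were likewise without a call by limma, 0 of 50 measured in 5 lists in either reading. At an unadjusted p of 0.05 there was 1 gene as deposited, against 3.6% of all ORFs, and turned there were 7, 4 above 0 and 3 below, against 9.4% of all ORFs. MEF2 had no value, MRH4 had one on array 1 only, and RIM1 had no row. The gene with the low p as deposited was ISM1, the mitochondrial isoleucyl-tRNA synthetase, with 0.23 on array 1 and 0.34 on array 2 (mean 0.28 ± 0.08, SD, n = 2 arrays; limma adjusted p = 1.00). The 13 tRNA synthetases had medians of -0.13 and 0.03. MSD1, for aspartate, had -0.35 and -0.0067, and MSW1, for tryptophan, had -0.19 and -0.14. The 8 measured translation factors had medians of -0.07 and 0.08. As deposited, 7 of the 8 had opposite signs, against 59.2% of all ORFs. Turned, only 1 of the 8 did, against 40.7% of all ORFs. RRF1, the ribosome recycling factor, had 0.15 and 0.16, while GUF1, the relative of bacterial elongation factor 4, had 0.54 and -0.31, with a turned mean of -0.43 (limma adjusted p = 0.487). MEF1, an elongation factor, had -0.20 and 0.13.

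Assembly factors and rRNA modifying enzymes had medians of 0.01 and 0.05 over 7 genes, with 0.01 and 0.22 in MRM2 and -0.24 and 0.05 in MRM1, both rRNA methyltransferases. MSS116, an RNA helicase, had 0.18 and -0.04. The 17 translational activators and insertion factors had medians of -0.08 and -0.01. PET122, an activator of COX3 translation, had -0.60 and 0.04. OXA1, the insertase that takes over the nascent chain, had -0.22 and -0.13, and MSS51, an activator of COX1 translation, had -0.27 and -0.06. Of these only OXA1 was past 0.1 below 0 on both arrays. The 5 measured genes of mitochondrial transcription and DNA had medians of 0.05 and 0.03, among them the RNA polymerase gene RPO41 with 0.40 and -0.12, the DNA polymerase gene MIP1 with -0.23 and 0.03, and ABF2, which packages mitochondrial DNA, with 0.07 and 0.03.

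**Figure D4:**
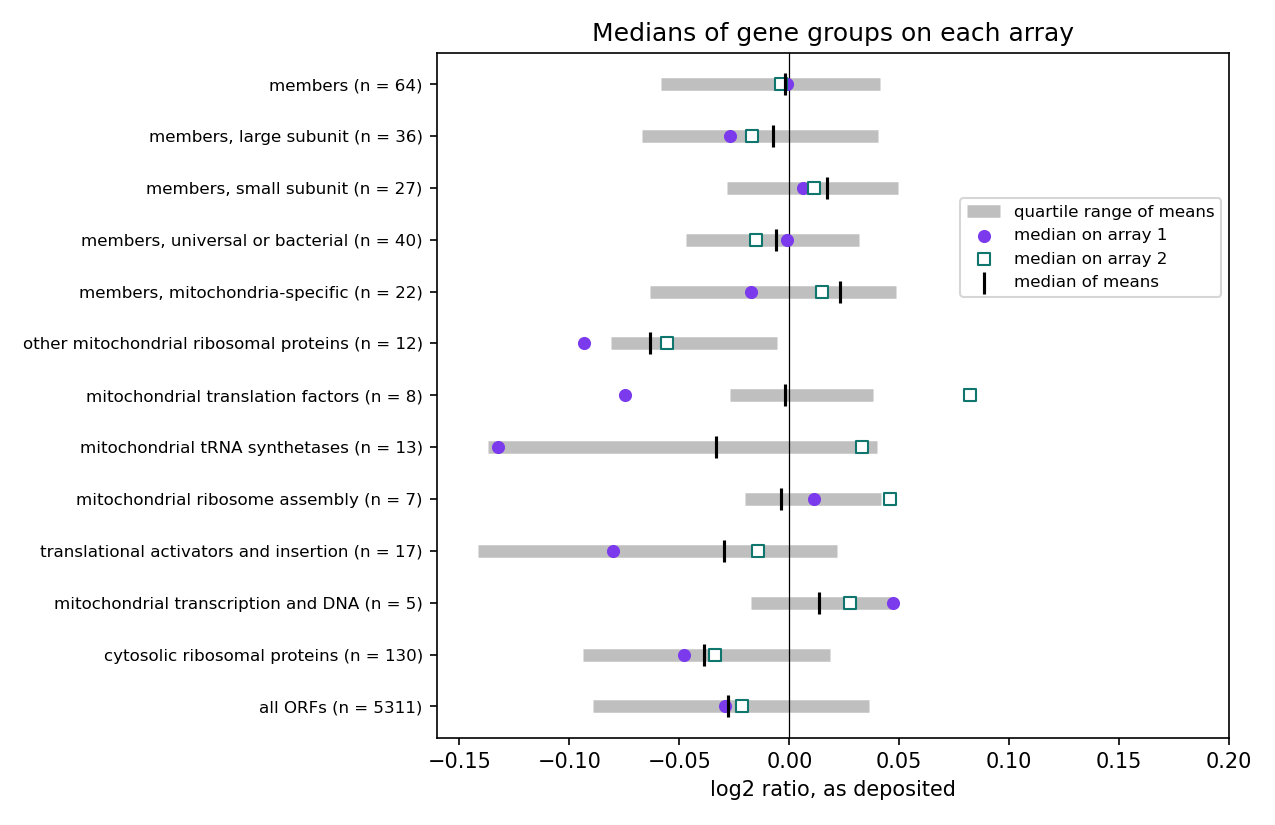
Median log2 ratio of each gene group on array 1 (filled circles) and array 2 (open squares), the median of the genes' means (bars) and the quartile range of those means (grey), with the number of genes in each label. The 64 genes (top row, labelled members) have medians next to 0 on both arrays, while translation factors and tRNA synthetases have their array medians on opposite sides of 0; a median of means need not lie between the array medians.

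The 7 genes listed as regulators of mitochondrial, respiratory or ribosomal genes did not pass either. PUF3 had 0.12 on array 1 and -0.06 on array 2. HAP4, the limiting subunit of the activator of respiratory genes, had -0.08 and 0.17, and its partners HAP2, HAP3 and HAP5 had means between -0.09 and -0.06. HAP1, the haem-responsive activator, had 0.40 and -0.53, the widest gap of the 7 regulators, with a turned mean of -0.47 (limma adjusted p = 0.487). SFP1, a regulator of cytosolic ribosomal genes, had 0.0060 and -0.07.

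Cytosolic ribosomal protein genes gave a comparison at another ribosome. The 130 measured genes had medians of -0.05 on array 1 and -0.03 on array 2, where the 64 mitochondrial genes had -0.00087 and -0.0040. In limma's test 0 of either set passed in either reading, and at an unadjusted p of 0.05 there were 0 of the 64 mitochondrial genes and 5 of the 130 cytosolic ones, against 3.6% of all ORFs. Turned, there were 4 and 7, all below 0, against 9.4% of all ORFs. The SD of the means over genes was 0.07 in the mitochondrial set and 0.11 in the cytosolic set. Below 0 on both arrays as deposited were 15 of 64 (23.4%) and 47 of 130 (36.2%). Turned, the counts were 18 of 64 (28.1%) and 34 of 130 (26.2%), so the contrast is not kept. The difference between the sets was not tested, and paralogous cytosolic genes share sequence, so their spots cannot be fully told apart. The markers of the MATa strain that lead their list, MFA2, STE6 and BAR1, had means of 0.12, -0.07 and 0.07. Of the alpha mating type list only SAG1 had values on both arrays, -0.05 and -0.16. Such ratios do not show whether a transcript is present.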

How the data were processed

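The authors deposited log2 ratios, 1 per ORF and array, a unit read from the values: for 100% of them, 2 to that power fell on a multiple of 0.0001 to within 1% of the step. No source used here gives the scanner, the background correction or the normalization. Of 6209 rows, 2 controls were left out, and 5654 of 6207 ORFs matched the R64 gene table (no coordinates are printed, since no build is named for the arrays). R64 product texts were not in that table, so the subunits planned from them were taken from unified names in its synonyms.

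Values were used as deposited. limma 3.58.1, in R 4.3.3, set the mean of both arrays against 0 (intercept, eBayes, two-sided, Benjamini-Hochberg over 5311 ORFs, prior degrees of freedom 23.5). With 2 arrays no dye term can be fitted beside the mean. The fit was tested on simulated data: among 5311 genes with 200 changed it found 86% of those at 1.5-fold and 100% of those at 2-fold, and 7.92% of its calls were false. The simulated errors were independent and normal, held no dye effect, and had variances drawn from the prior that limma fitted to these data. The shares found therefore do not measure how many changes the real arrays would reveal.

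Named genes are the 8 highest and 8 lowest of each subunit by mean, the 6 widest gaps between arrays, the 5 nearest the median, and up to 3 per list by absolute mean (all regulators). Further genes were added for their known roles after values were seen. The members and lists were chosen with earlier results of these data known. Alternatives were a turned array, centring, scaling, single arrays, filters, other thresholds and other memberships. Tables and plots used Python 3.11.15, pandas 2.3.3, numpy 2.4.6 and matplotlib 3.10.9.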

Additional observations from a re-analysis of the deposited data

How the results depend on the processing

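Of the mitochondrial ribosomal protein genes, 0 passed under each of the 8 other settings of the test, the one with other unified names added (chosen after seeing the data) included; the count at an unadjusted p of 0.05 was 0 except with array 1 turned, where it was 4. The genes past the test over all ORFs numbered 41 as deposited, 0 with array 1 turned and 25 when tested against 1.2-fold. The median of the 64 genes, -0.0021 as deposited, was -0.0044 with array 1 turned, 0.0257 centred, -0.0043 scaled and -0.0080 with other unified names, and -0.0040 to -0.00087 on single arrays. The large subunit's median, -0.0075, was -0.0201 turned and 0.0203 centred, and -0.0269 to -0.0171 on single arrays. The small subunit's, 0.0170, was 0.0059 turned, 0.0448 centred and 0.0216 scaled, and 0.0060 to 0.0114 on single arrays. Large minus small, -0.0245, was -0.0260 with array 1 turned, -0.0332 scaled and -0.0330 to -0.0284 on single arrays. It was below 0 in each setting run, but single arrays were run only as deposited. Turning array 1 reverses the sign of its own value, so the 2 arrays then disagree. By symbol alone, the turned medians were -0.0048 for MRPL and -0.0044 for MRPS and RSM. Every shift of a median in the settings run was under 0.03 on the log2 scale. It stands out only against the small SD between the 2 arrays' medians, and the cause was not tested. Between 27 and 36 genes kept one sign on both arrays, 28 as deposited. Single arrays allow no test and no count of shared signs, and the addition of ORFs with 1 value added no member. No paired analysis was possible because the arrays form 1 group. No group had the number of samples that a search for outlying samples needs.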
